A study of Mus musculus with 13 samples.

Results

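The potassium channel genes of the mouse were examined in open chromatin profiles of cultured oligodendrocyte precursor cells (OPCs), which divide and give rise to the myelin-forming cells of the brain. The members are the 94 protein-coding genes of the GENCODE M21 annotation whose symbols start with Kcn, out of 21951 protein-coding genes. Chromatin was profiled by ATAC-seq, in which a transposase cuts and tags accessible DNA, in 13 OPC cultures. The cells were panned on an anti-PDGFRα antibody from AMGFAP-Cre;K27M litters at postnatal days 5 to 7 and kept in proliferation medium without differentiation. Tissue was pooled by region and genotype before culture, so each library is a pool of pups. In these mice the H3.3 K27M histone mutation is a conditional knock-in at the endogenous gene that Cre recombination switches on, and the study describes its GFAP-driven Cre as active in neural stem and progenitor cells. Control cultures came from the same litters. The exact alleles carried by control pups are not given in the sources used here. The groups were control brainstem (n = 3), K27M brainstem (n = 3), control telencephalon (n = 3) and K27M telencephalon (n = 4), where telencephalon means the dorsal part with cortex, corpus callosum and hippocampus. Cultures carry the numbers 41, 51, 59 and 61.

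Potassium channels let potassium leave or enter the cell and thereby set the resting membrane potential and end electrical signals. Voltage-gated subunits open on depolarisation, inward rectifiers hold the potential near that of potassium, two-pore channels carry a steady leak, and a further class opens on internal calcium or sodium. OPCs are known for delayed-rectifier and A-type potassium currents, whereas inward rectifiers built from Kcnj10 and Kcnj16 products are known for potassium uptake by glia. Open chromatin at a promoter marks a gene that the cell could use, and it does not measure transcription or channel protein.

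Promoters were taken as 2 kb before to 1 kb after any annotated start. A gene-body peak overlapped the gene and no promoter window of it. The fold enrichment of a peak is its signal relative to nearby background in the same library, and its percentile is the rank of that fold in the same list. The lists held between 16879 and 52466 peaks and give no read counts, so depth is unknown and a missing peak means not called, not closed. In these bulk samples, a few fully open cells and many partly open cells cannot be told apart. Of 7 OPC marker genes, 6 had a promoter peak in all 13 libraries, among them Pdgfra, Olig2 and Sox10, and Cspg4 had one in 3 libraries. Of other cell types, 2 of 5 astrocyte markers, Gfap and Slc1a2, and 3 of 5 neuronal markers, Snap25, Syt1 and Tubb3, had one in all 13. No mature oligodendrocyte, microglial or endothelial marker did, but Mbp and P2ry12 were called in 12 libraries each and Flt1 in 11, while Mog, Mag, Cx3cr1, Csf1r and Tek were called in none. The 6 OPC markers called in all 13 libraries had mean percentiles from 5.7 (Sox10) to 62.3 (Gpr17), with Pdgfra at 18.4. Those of the other cell types stood at 63.6 for Gfap, 41.0 for Slc1a2, 77.5 for Snap25, 92.3 for Syt1 and 13.2 for Tubb3. The part of other cell types in the potassium channel results was not tested.

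Of the 94 potassium channel genes, 32 (34.0%) had a promoter peak in all 13 libraries, beside 42.0% of all protein-coding genes. Another 47 (50%) had one in some libraries, beside 27.4%, and 15 (16.0%) had one in none, beside 30.6%. When every list was shortened to its 16879 most significant peaks, 16 (17%) were found in all libraries, beside 30.3% of coding genes. In those shortened lists 41 (43.6%) were found in none, beside 43.5%, so the lower share without a peak was not seen at equal list length. Where a potassium channel promoter was found in all libraries, its peak was of middling strength, with a median percentile of 60.5 and a median fold of 3.20, beside 75.7 and 3.56 for coding genes.

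Promoter sequences are shown for 6 genes because open and unopened channel promoters differed in CG content. They were taken from the RefSeq promoter table (GRCm38.p6, the assembly of mm10), which held 69 of the 94 genes. Each runs from 250 bases before to 50 bases after a transcription start, 5′ to 3′, with every CG dinucleotide in capitals. Kcna3 (chr3:107035912-107036211, + strand, 37 CG), Kcnj10 (chr1:172340960-172341259, + strand, 21 CG) and Kcnj2 (chr11:111065914-111066213, + strand, 18 CG) had a peak inside the printed window in all 13 libraries. Kcnj16 has 4 starts in the table, of which the one at chr11:110997237-110997536 (+ strand, 8 CG) had a peak in 13 libraries and the one at chr11:111019335-111019634 (+ strand, 5 CG) in 0. Of its starts not printed, that at chr11:110967783-110968082 (3 CG) had a peak in 0 libraries. The other, at chr11:111023610-111023909 (1 CG), had a peak in 3. Kcnk15 (chr2:163853500-163853799, + strand, 24 CG) and Kcnmb1 (chr11:33962763-33963062, + strand, 1 CG) had none in any library. Over 32851 such promoters of the table, 26.5% held at least 20 CG and 62.0% held at least 5.
Kcna3, open: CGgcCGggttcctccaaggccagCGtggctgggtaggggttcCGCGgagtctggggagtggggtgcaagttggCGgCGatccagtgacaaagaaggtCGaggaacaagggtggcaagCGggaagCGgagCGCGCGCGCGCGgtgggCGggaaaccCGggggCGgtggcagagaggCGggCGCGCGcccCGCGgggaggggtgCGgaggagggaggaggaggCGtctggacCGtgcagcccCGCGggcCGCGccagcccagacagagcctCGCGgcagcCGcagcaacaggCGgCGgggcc
Kcnj10, open: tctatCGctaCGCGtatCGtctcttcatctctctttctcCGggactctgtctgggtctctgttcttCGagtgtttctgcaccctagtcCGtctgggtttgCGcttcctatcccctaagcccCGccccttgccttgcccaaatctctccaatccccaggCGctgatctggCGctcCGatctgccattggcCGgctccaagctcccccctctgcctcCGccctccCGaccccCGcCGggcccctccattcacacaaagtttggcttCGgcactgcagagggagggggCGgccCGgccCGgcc
Kcnj2, open: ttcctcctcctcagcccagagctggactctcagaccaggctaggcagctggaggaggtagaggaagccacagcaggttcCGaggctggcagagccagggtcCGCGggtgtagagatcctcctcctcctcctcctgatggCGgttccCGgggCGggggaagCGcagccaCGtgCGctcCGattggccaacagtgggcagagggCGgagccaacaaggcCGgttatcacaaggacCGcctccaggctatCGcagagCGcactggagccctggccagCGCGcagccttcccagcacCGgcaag
Kcnj16, open start: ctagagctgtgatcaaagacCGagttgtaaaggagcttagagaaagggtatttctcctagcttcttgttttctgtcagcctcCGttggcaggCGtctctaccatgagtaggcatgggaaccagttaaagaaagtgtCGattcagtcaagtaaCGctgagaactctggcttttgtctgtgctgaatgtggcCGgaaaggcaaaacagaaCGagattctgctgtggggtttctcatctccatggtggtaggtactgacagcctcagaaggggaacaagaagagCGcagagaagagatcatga
Kcnj16, start without a peak: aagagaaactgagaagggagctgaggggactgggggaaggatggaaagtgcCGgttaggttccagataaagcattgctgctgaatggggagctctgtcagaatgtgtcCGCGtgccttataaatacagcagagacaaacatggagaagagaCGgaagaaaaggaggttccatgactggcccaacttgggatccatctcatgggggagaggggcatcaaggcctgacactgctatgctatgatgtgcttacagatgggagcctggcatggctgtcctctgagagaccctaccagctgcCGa
Kcnk15, no peak: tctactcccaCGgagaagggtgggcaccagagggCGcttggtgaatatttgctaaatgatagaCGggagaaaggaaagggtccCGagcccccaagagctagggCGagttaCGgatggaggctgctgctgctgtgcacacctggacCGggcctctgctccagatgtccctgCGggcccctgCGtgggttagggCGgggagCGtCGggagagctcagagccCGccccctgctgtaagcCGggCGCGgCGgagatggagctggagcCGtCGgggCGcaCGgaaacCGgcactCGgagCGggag
Kcnmb1, no peak: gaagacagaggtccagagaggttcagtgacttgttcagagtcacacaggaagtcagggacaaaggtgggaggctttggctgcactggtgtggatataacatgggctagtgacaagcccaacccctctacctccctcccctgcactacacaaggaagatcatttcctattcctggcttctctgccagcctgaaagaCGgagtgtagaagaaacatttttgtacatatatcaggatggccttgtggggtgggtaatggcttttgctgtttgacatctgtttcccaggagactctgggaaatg

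The ratio of observed to expected CG in the same window was read from the genome at every annotated start, with the highest kept. Over the 94 genes its median was close between genes open in all and in some libraries, and lower in those open in none. The median ratio was 0.729 for the 32 channel genes open in all libraries, 0.703 for the 47 open in some and 0.293 for the 15 open in none. The same medians over all coding genes were 0.885, 0.683 and 0.213. A ratio of at least 0.6 was reached by 75.0%, 61.7% and 26.7% of the channel genes, beside 90.3%, 58.8% and 8.42% of coding genes. Members crossed this order of medians in both directions. Kcnj16 (0.484), Kcnv1 (0.458), Kcnj3 (0.411) and Kcnn3 (0.483) were open in every library with a low ratio, whereas Kcnj12 (0.909), Kcnq1 (0.767), Kcnk9 (0.763) and Kcnk15 (0.727) had a high ratio and no promoter peak. These 8 genes were picked after their values were seen.

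By class, voltage-gated pore subunits were open in all libraries for 16 of 40 genes, in some for 21 and in none for 3. Inward rectifiers divided into 5, 7 and 3 of 15, and two-pore channels into 4, 7 and 3 of 14. Calcium- or sodium-activated channels divided into 4, 3 and 1 of 8. Auxiliary subunits, which tune pore subunits and do not conduct, were open in all libraries for 3 of 16, in some for 9 and in none for 4. Kcnrg, a regulator rather than a channel, was open in none. Median CG ratios of genes open in all and in some were 0.729 and 0.825 for voltage-gated subunits. They were 0.693 and 0.852 for calcium- or sodium-activated channels. For two-pore channels open in some and in none they were 0.701 and 0.727. These classes thus departed from the order of states over the 94 genes, which inward rectifiers and auxiliary subunits kept. For comparison, 27 other potassium-handling genes, such as the subunits of the sodium-potassium pump, the chloride cotransporters and the Hcn channels, divided into 10, 13 and 4.

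**Figure D1:**
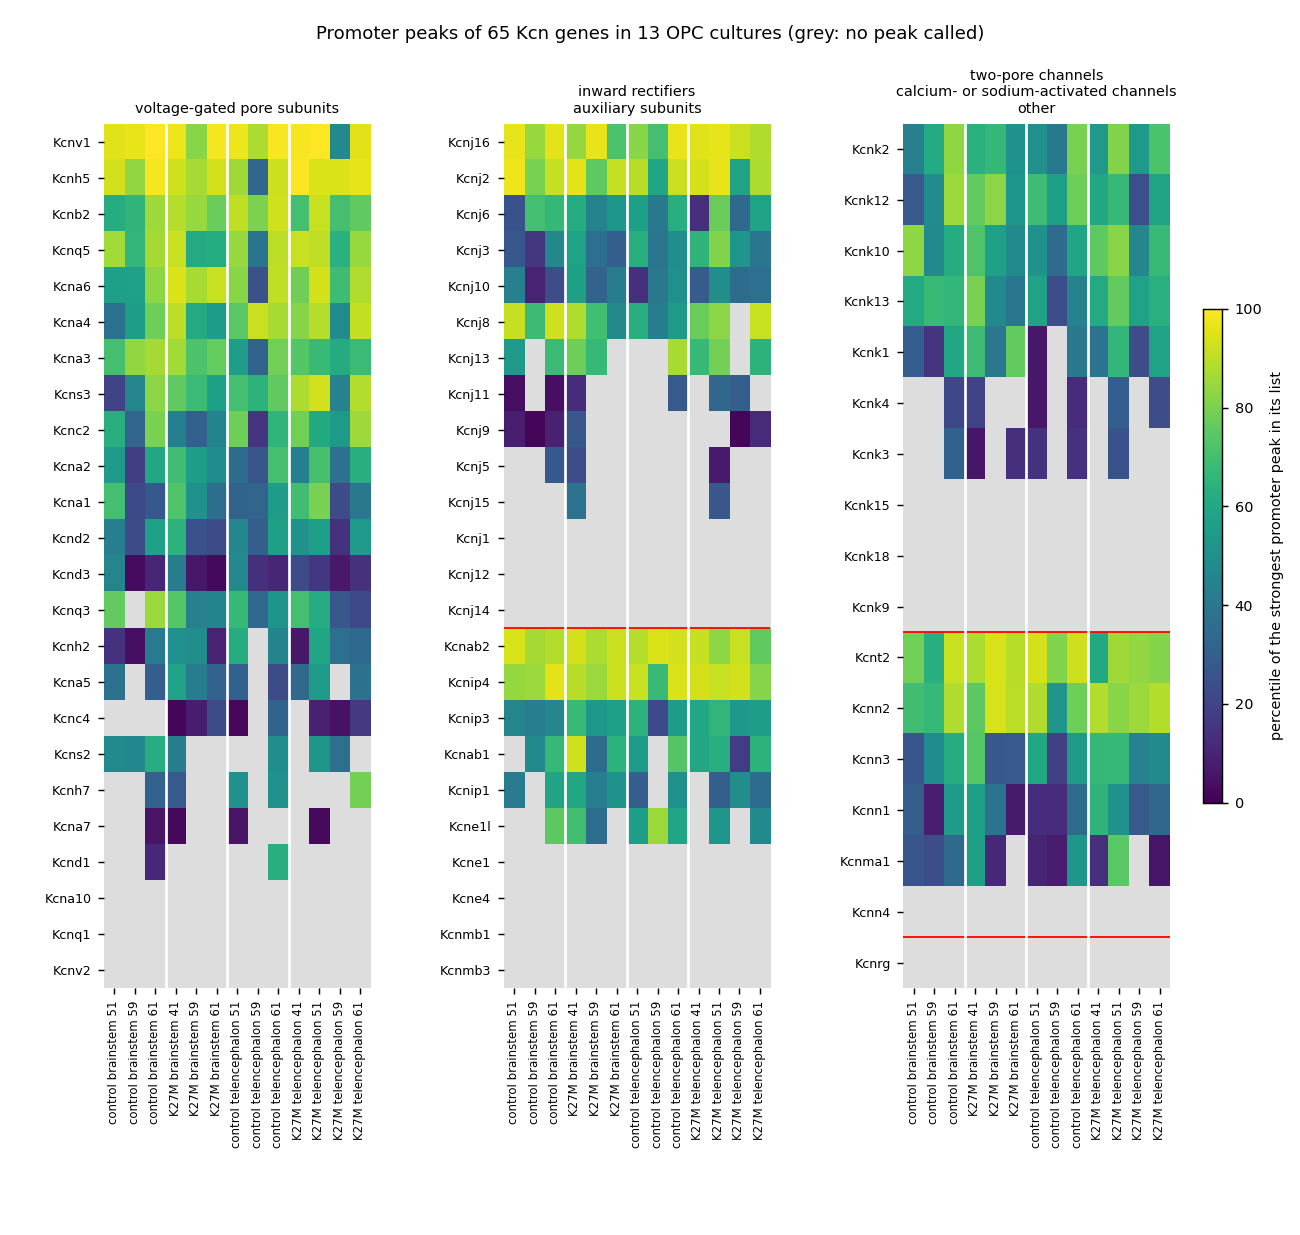
Each row is 1 of 65 Kcn genes named in the text, out of 94. Rows are grouped by class, with red lines between classes. Each column is 1 of the 13 cultures, with white lines between the 4 groups. Colour gives the percentile (0 to 100) of the strongest promoter peak within its own list and grey marks no called peak. The upper rows of each class are filled across every group, while partly filled rows are most complete in the longest lists and emptiest in control telencephalon culture 59.

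Among voltage-gated subunits, Kcnv1, a modifier subunit that forms no channel alone, had the strongest promoter of all 94 genes. Its fold was 4.31, 4.35 and 6.18 in control brainstem, 5.14, 3.75 and 4.49 in K27M brainstem, 4.16, 3.42 and 5.46 in control telencephalon and 4.62, 6.02, 2.96 and 4.24 in K27M telencephalon. The cultures overlapped widely between all 4 groups, with a mean of 4.54 ± 0.95 (SD, n = 13) and a mean percentile of 92.0. Kcnh5, an ether-a-go-go channel subunit, followed at 4.18 ± 0.68 (percentile 88.0), and its lowest value of 2.70 was in control telencephalon culture 59.

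The Shaker subunits, some of which form delayed rectifiers known from OPCs, held 5 of the always-open genes. Mean folds were 3.69 ± 0.63 for Kcna6, 3.52 ± 0.54 for Kcna4, 3.41 ± 0.45 for Kcna3, 3.01 ± 0.33 for Kcna2 and 2.98 ± 0.39 for Kcna1 (SD, n = 13 each). Kcna5 was found in 10 libraries (2.76 ± 0.18), Kcna7 in 4, and Kcna10 in none. Thus the family ranged from peaks in every library to no peak, with 2.21 ± 0.11 as the mean of Kcna7 where it was called.

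The A-type subunits Kcnd2 and Kcnd3 were open in all libraries with weak promoters, 2.86 ± 0.23 and 2.50 ± 0.18 (SD, n = 13), and Kcnd3 ranked lowest of the 32 at a mean percentile of 18.6. Kcnd1 was called in 2 libraries. The delayed rectifier Kcnb2 was open in all (3.67 ± 0.52). Of the M-current subunits, which hold neurons near rest, Kcnq5 was open in all (3.66 ± 0.56), Kcnq3 in 12 (3.10 ± 0.45) and the cardiac and epithelial Kcnq1 in none. Kcnh2, the subunit of the cardiac rapid delayed rectifier, was found in 12 libraries (2.74 ± 0.26), and its strongest promoter peak covered no annotated start in any of them.

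Among inward rectifiers, Kcnj16 and Kcnj2 had the strongest promoters. The fold of Kcnj16 was 4.38, 3.69 and 4.92 in control brainstem, 3.97, 4.53 and 3.23 in K27M brainstem, 3.32, 3.08 and 4.95 in control telencephalon and 4.11, 4.95, 4.01 and 3.74 in K27M telencephalon. Kcnj2, the classical strong rectifier, read 4.53, 3.55 and 4.52 in control brainstem, 4.88, 3.53 and 3.82 in K27M brainstem, 3.57, 2.94 and 4.46 in control telencephalon and 3.98, 4.99, 3.11 and 3.73 in K27M telencephalon. In both genes every group overlapped every other, and the means were 4.07 ± 0.65 and 3.97 ± 0.65 (SD, n = 13).

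Kcnj10, the main inward rectifier of glia, had a weak promoter peak, with folds in a narrow range but percentiles from 9.81 to 56.75. Its fold was 2.90, 2.56 and 2.66 in control brainstem, 3.00, 2.82 and 2.76 in K27M brainstem, 2.34, 2.76 and 3.02 in control telencephalon and 2.59, 2.87, 2.83 and 2.62 in K27M telencephalon. The mean of 2.75 ± 0.19 (SD, n = 13) placed it at percentile 35.4, below Kcnj16, its known partner subunit, in all 13 libraries. The peak was broad, with a median width of 2535 bp against 1077 bp for Kcnj16 and 1808 bp for Kcnj2.

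The remaining inward rectifiers ranged from peaks in every library to none. Kcnj8, the pore of a vascular ATP-sensitive channel, was found in 12 libraries (3.53 ± 0.60), and the pancreatic ATP-sensitive pore Kcnj11 in 6 (2.51 ± 0.20). Of the G-protein-gated subunits, Kcnj3 and Kcnj6 were open in all (2.94 ± 0.32 and 3.02 ± 0.35), Kcnj9 in 6 and Kcnj5 in 3. Kcnj13 was called in 8 libraries with high folds (3.46 ± 0.40). The renal Kcnj1 and the rectifiers Kcnj12 and Kcnj14 had no promoter peak.

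Two-pore channels open in all libraries were Kcnk2 and Kcnk10, both mechanically gated, and the halothane-inhibited Kcnk12 and Kcnk13, with mean folds of 3.22, 3.18, 3.21 and 3.12. Kcnk1, a leak channel of astrocytes, was found in 12 (2.92 ± 0.35), and the acid-sensitive Kcnk3 in 6, Kcnk9 in none. Kcnk15 and Kcnk18 were also never found. Among activated channels, the sodium-activated Kcnt2 read 3.79 ± 0.50 and the small-conductance calcium-activated Kcnn2, Kcnn3 and Kcnn1 read 3.67 ± 0.39, 2.97 ± 0.30 and 2.74 ± 0.27 (SD, n = 13). The strongest Kcnn1 promoter peak covered no annotated start in any library. Of the 32 genes open in all libraries, 18 had their strongest peak over an annotated start in every library. For Kcnc2 this held in 8 libraries, for Kcns3 in 9, and for Kcnt2 and Kcnb2 in 11 each. The fourth small- to intermediate-conductance gene, Kcnn4, known from immune cells, had no promoter peak, and the large-conductance Kcnma1 was found in 11 libraries (2.72 ± 0.39).

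Auxiliary subunits were led by Kcnab2 (3.97 ± 0.38, percentile 89.2) and Kcnip4 (3.98 ± 0.51, percentile 88.1). The Kcnab2 peak also lay in the promoter window of Nphp4 in all 13 libraries and cannot be assigned to one of them. Kcnip3, a calcium sensor of A-type channels, read 3.00 ± 0.18 and Kcnab1 was found in 11 libraries (3.20 ± 0.53). Kcne1, Kcne4, Kcnmb1 and Kcnmb3 had no promoter peak. Over all classes, 5 genes, Kcnj14, Kcnk18, Kcnmb1, Kcnrg and Kcnv2, had neither a promoter nor a gene-body peak in any library.

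Among the partly open genes, 16 were found in 1 to 4 libraries, 12 in 5 to 8 and 19 in 9 to 12. Of the 7 found in 12 libraries, 5 were missed only in the shortest list, that of control telencephalon culture 59. The number of potassium channel genes with a promoter peak ranged from 37 (39.4%) in that library to 75 (79.8%) in K27M brainstem culture 41, while the share of all coding genes ranged from 44.4% to 64.0%. The mean was 58.2 ± 10.7 genes in brainstem (n = 6) and 56.0 ± 10.6 in telencephalon (n = 7), and 58.7 ± 9.8 in K27M (n = 7) and 55.0 ± 11.4 in control (n = 6). These means differed by less than the SD within each set of cultures.

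**Figure D2:**
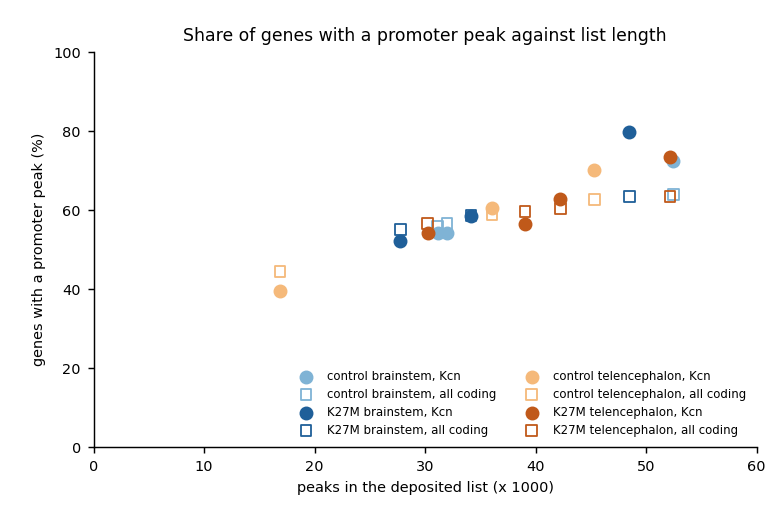
Filled circles give the percentage of the 94 Kcn genes, and open squares that of all protein-coding genes, with a promoter peak in each culture, against the number of peaks in the list, in units of 1000. Colours mark the 4 groups. The lowest Kcn point, 39.4%, is the list of 16879 peaks, and the points of all groups lie along the same rise with list length.

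Detection was compared between regions and between genotypes by Fisher's exact test (two-sided) over the 962 coding genes found in 5 to 8 libraries, 12 of them potassium channel genes. By region, 0 of the 12 passed a Benjamini-Hochberg adjusted p of 0.05, beside 0.0% of all genes tested. With 6 against 7 libraries the smallest p this test can give is 0.000583, at which a gene alone cannot pass over 962 genes. At an unadjusted p under 0.05 the counts were 0 of the 12 and 14 of 962 (1.46%). Kcnj9, a G-protein-gated rectifier, came nearest, with a peak in 4 of 6 brainstem and 2 of 7 telencephalon cultures (exact p = 0.286, adjusted p = 1.0). Its fold was 2.49, 2.28 and 2.46 in control brainstem, 2.45 in K27M brainstem culture 41, and 2.24 and 2.36 in K27M telencephalon cultures 59 and 61. The next genes were Kcnc4 and Kcne1l, each in 3 of 6 brainstem and 5 of 7 telencephalon cultures, and Kcnk4 in 2 and 4 (exact p = 0.592 each). The strongest Kcne1l peak covered no annotated start in any of its 8 libraries.

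By genotype, 0 of the 12 genes passed, again beside 0.0% of those tested, and at an unadjusted p under 0.05 the counts were 0 of the 12 and 12 of 962 (1.25%). Kcnc4, a voltage-gated subunit of the Shaw family, had a peak in 6 of 7 K27M cultures and 2 of 6 controls (exact p = 0.103, adjusted p = 1.0). It was called in all 3 K27M brainstem cultures (2.05, 2.52 and 2.57) and in none of the 3 control brainstem cultures. In telencephalon it was called in 3 of 4 K27M cultures (2.31, 2.42 and 2.42) and in 2 of 3 control cultures (2.101 and 2.741). Kcnh7, Kcnj13 and Kcns2 followed (exact p = 0.592 each), with peaks in 2 and 3, 5 and 3, and 3 and 4 of the K27M and control cultures, and Kcne1l was found in 4 of each.

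The strength of the promoter peak was compared with limma on the log2 fold, centred on the median promoter of each library, over the 9211 coding genes with a peak in all 13 libraries. By region, 0 of the 32 potassium channel genes passed an adjusted p of 0.05, beside 0.0109% of all genes, and 4 of 32 had an unadjusted p under 0.05, beside 5.06%. The Shaker gene Kcna4 came first, with 2.83, 3.09 and 3.86 in control brainstem, 4.33, 3.23 and 2.93 in K27M brainstem, 3.12, 3.58 and 4.15 in control telencephalon and 3.48, 4.28, 2.97 and 3.88 in K27M telencephalon. The regions overlapped in these folds, and the centred difference, brainstem minus telencephalon, was -0.20 on the log2 scale (SE 0.08, adjusted p = 0.919).

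Kcns3, a silent modifier subunit, differed by -0.18 (SE 0.08, adjusted p = 0.94) and Kcnj3 by -0.15 (SE 0.07, adjusted p = 0.94), both lower in brainstem. Kcna3 differed by 0.14 the other way (adjusted p = 0.94), with folds of 3.36, 3.67 and 4.24 in control brainstem, 4.08, 3.46 and 3.33 in K27M brainstem, 2.78, 2.69 and 3.79 in control telencephalon and 3.23, 3.36, 3.16 and 3.13 in K27M telencephalon. The lowest brainstem value of Kcna3, 3.33, lay above 5 of the 7 telencephalon values before centring. Without centring, the median of all genes moved to 0.07 and 28 of the 32 genes were higher in brainstem, against 10 with centring, so these signs are relative to the median promoter. The 95% intervals of the glial rectifiers held 0, at -0.20 to 0.12 for Kcnj10, -0.17 to 0.13 for Kcnj16 and -0.06 to 0.21 for Kcnj2. The median half-width of the 95% interval was 0.14 over the 32 genes.

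By genotype, 0 of the 32 genes passed, beside 0.0% of all genes, and 1 had an unadjusted p under 0.05, beside 4.34%. That gene was Kcna6, with folds of 3.08, 3.11 and 4.06 in control brainstem, 4.68, 3.90 and 3.85 in K27M brainstem, 3.32, 2.62 and 4.35 in control telencephalon and 3.37, 4.64, 3.30 and 3.74 in K27M telencephalon. The difference, K27M minus control, was 0.19 (SE 0.07, adjusted p = 1.0), with 0.32 within brainstem (adjusted p = 1.0), where 2 of 3 K27M values were below the highest control value before centring. The calcium-activated Kcnn2 differed by 0.13 (adjusted p = 1.0). Intervals for the glial rectifiers were -0.16 to 0.19 for Kcnj10, -0.18 to 0.15 for Kcnj16 and -0.17 to 0.12 for Kcnj2, with a median half-width of 0.16 over the 32 genes.

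**Figure D3:**
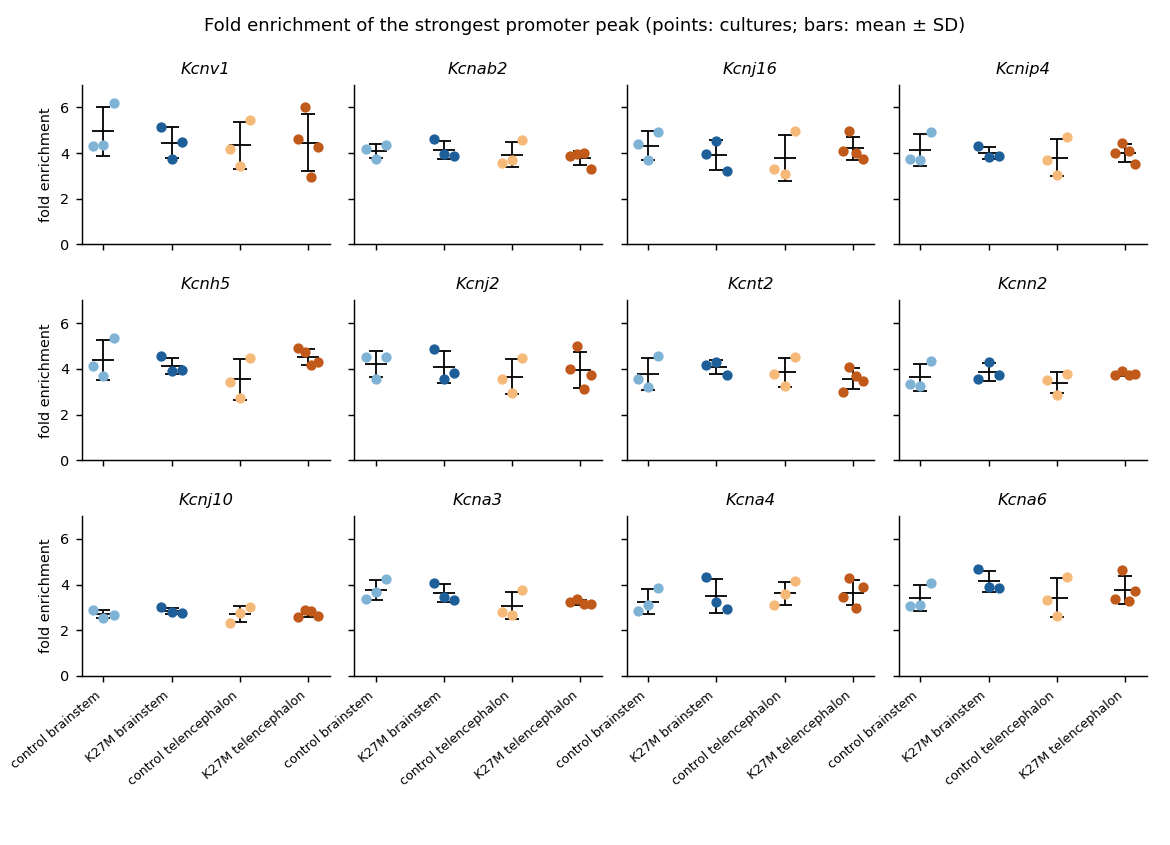
Fold enrichment of the strongest promoter peak (vertical axis, from 0) is plotted for 12 Kcn genes by group, with 1 point per culture and the mean ± SD as bars. Values of Kcnv1 spread from 2.96 to 6.18 and those of Kcnj10 from 2.34 to 3.02, and the 4 groups overlap in most panels.

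**Figure D4:**
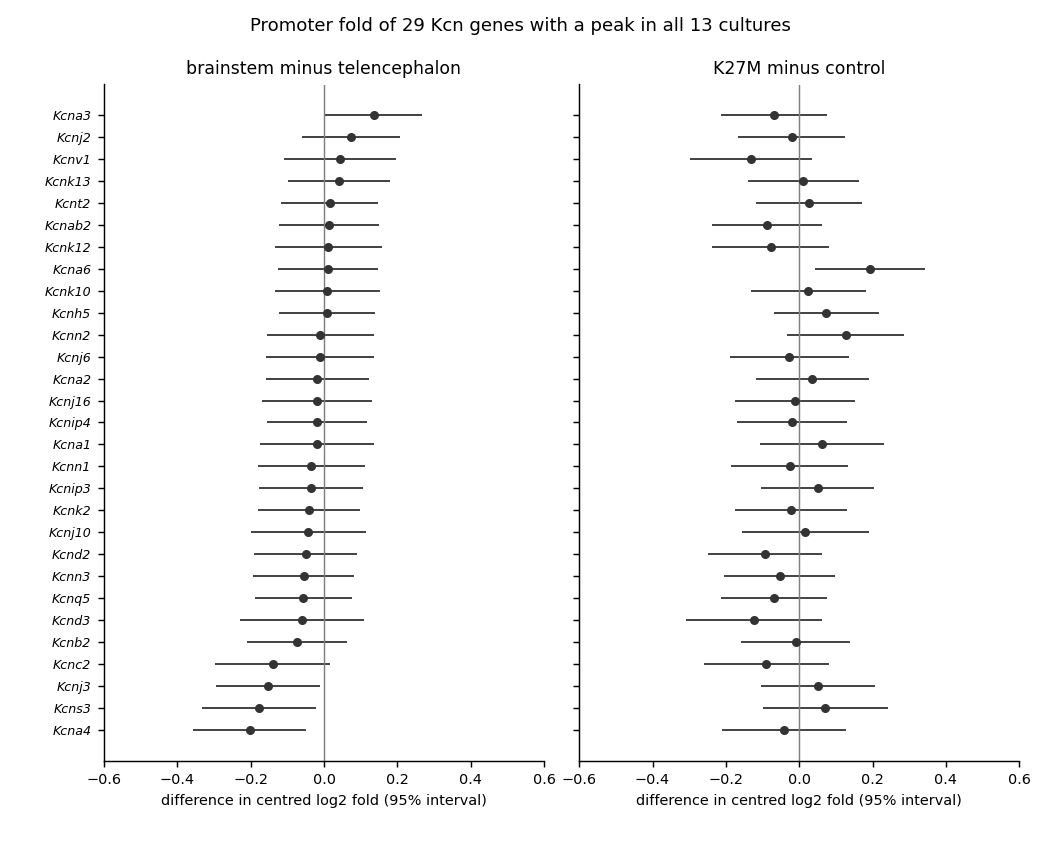
Points give the difference in centred log2 fold for 29 of the 32 Kcn genes with a promoter peak in all cultures, those the text names, with brainstem minus telencephalon on the left and K27M minus control on the right, with 95% intervals as bars. Genes are in the order of the regional difference, from 0.14 for Kcna3 to -0.20 for Kcna4, and no gene shown passed an adjusted p of 0.05 in either panel.

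Within single regions or genotypes, 0 of the 32 genes passed in any contrast, beside 0.0% to 0.0109% of all genes. At an unadjusted p under 0.05 there were 2 of 32 in each of the 4 contrasts, beside 4.73% and 3.76% between regions in control and K27M cultures, and 3.98% and 4.02% between genotypes in brainstem and telencephalon. Among the lowest p values were those of Kcna4 between control cultures of the 2 regions (-0.29, adjusted p = 0.967), Kcnc2 between K27M cultures of the regions (-0.27, adjusted p = 0.999) and Kcnh5 for K27M in telencephalon (0.25, adjusted p = 0.999). The test of whether the K27M difference itself differed between regions passed for 0 of 32 genes, beside 0.0%, and 3 had an unadjusted p under 0.05, beside 3.76%. They were Kcnt2 (0.37), Kcnh5 (-0.36) and Kcnb2 (0.33), with adjusted p = 1.0 each. Of the 10 other potassium-handling genes open in all libraries, 0 passed in any contrast, and 1 by region and 0 by genotype had an unadjusted p under 0.05.

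Gene-body peaks added regions that the promoters did not show. Peaks of the 94 genes outside their promoters joined into 355 regions, of which 28 in 15 genes were common to the 13 libraries and 164 were called in only 1. Of the 28, 25 lay within introns and 3 touched an exon, and 2 overlapped the promoter window of another annotated gene. The strongest was an intronic region of Kcnq3 (chr15:66238820-66240531), with a mean fold of 4.71 ± 0.69 (percentile 96.8), beside 3.10 ± 0.45 at its promoter in the 12 libraries where that was called.

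Kcnj10 came second through an intronic region (chr1:172349699-172350972) centred 9.13 kb downstream of its start. Its fold was 4.28, 4.60 and 4.80 in control brainstem, 5.20, 4.73 and 3.53 in K27M brainstem, 4.23, 3.81 and 5.06 in control telencephalon and 4.07, 4.92, 4.51 and 4.46 in K27M telencephalon. It exceeded the fold of the Kcnj10 promoter in every culture, with a mean of 4.48 ± 0.49 (SD, n = 13) and a percentile of 95.8 beside 35.4. A second intronic region (chr1:172357475-172359580), 17.3 kb from the start, was also found in all 13 libraries (2.64 ± 0.26), and the third in 10. All 3 were found in both regions and in both genotypes.

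Kcnd3, the A-type subunit with the weakest always-open promoter, had the most gene-body peaks. The numbers were 13, 11 and 17 in control brainstem, 17, 16 and 11 in K27M brainstem, 14, 10 and 16 in control telencephalon and 15, 19, 12 and 14 in K27M telencephalon. The mean of 14.2 ± 2.7 was above that of 99.8% of coding genes, and its density of 6.42 peaks per 100 kb was above that of 99.5% of the 5007 coding genes of at least 50 kb. They joined into 25 regions, 8 of them in all 13 libraries, and the strongest of these (chr3:105585193-105586689) had a fold of 4.30 ± 0.73 (percentile 92.2). Over channel genes of at least 50 kb the median density was 0.819 per 100 kb, beside 1.05 for coding genes.

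The central 300 bases of the strongest Kcnj10 and Kcnd3 regions are shown because they carry the strongest gene-body signal of the main glial rectifier and of the channel gene with most gene-body peaks. They were read from the + strand of GRCm38.p6 (chr1:172350186-172350485 and chr3:105585792-105586091), both intronic. Capitals mark CAGCTG, an E-box form that proteins such as Olig2 can bind, and the SOX-type letters ACAATG and ACAAAG, searched on both strands. The Kcnd3 window held CAGCTG 2 times, and the Kcnj10 window held none of the 3. Among the central 300 bases of 3980 merged peaks that were found in all 13 libraries and lay outside all promoter windows, 29.4% held CAGCTG, 20.7% ACAATG and 34.9% ACAAAG.
Kcnj10 intron: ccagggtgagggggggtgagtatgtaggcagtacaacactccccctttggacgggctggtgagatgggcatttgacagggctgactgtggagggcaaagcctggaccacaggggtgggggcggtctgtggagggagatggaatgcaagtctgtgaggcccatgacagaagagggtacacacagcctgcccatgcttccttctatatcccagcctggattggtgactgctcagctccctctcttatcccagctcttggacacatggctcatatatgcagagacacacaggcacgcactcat
Kcnd3 intron: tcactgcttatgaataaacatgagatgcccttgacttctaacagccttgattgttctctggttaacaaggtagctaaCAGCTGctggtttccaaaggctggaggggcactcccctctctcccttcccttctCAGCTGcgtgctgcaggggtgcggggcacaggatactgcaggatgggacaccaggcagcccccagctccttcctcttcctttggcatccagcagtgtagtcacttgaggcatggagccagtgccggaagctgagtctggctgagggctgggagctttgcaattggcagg

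**Figure D5:**
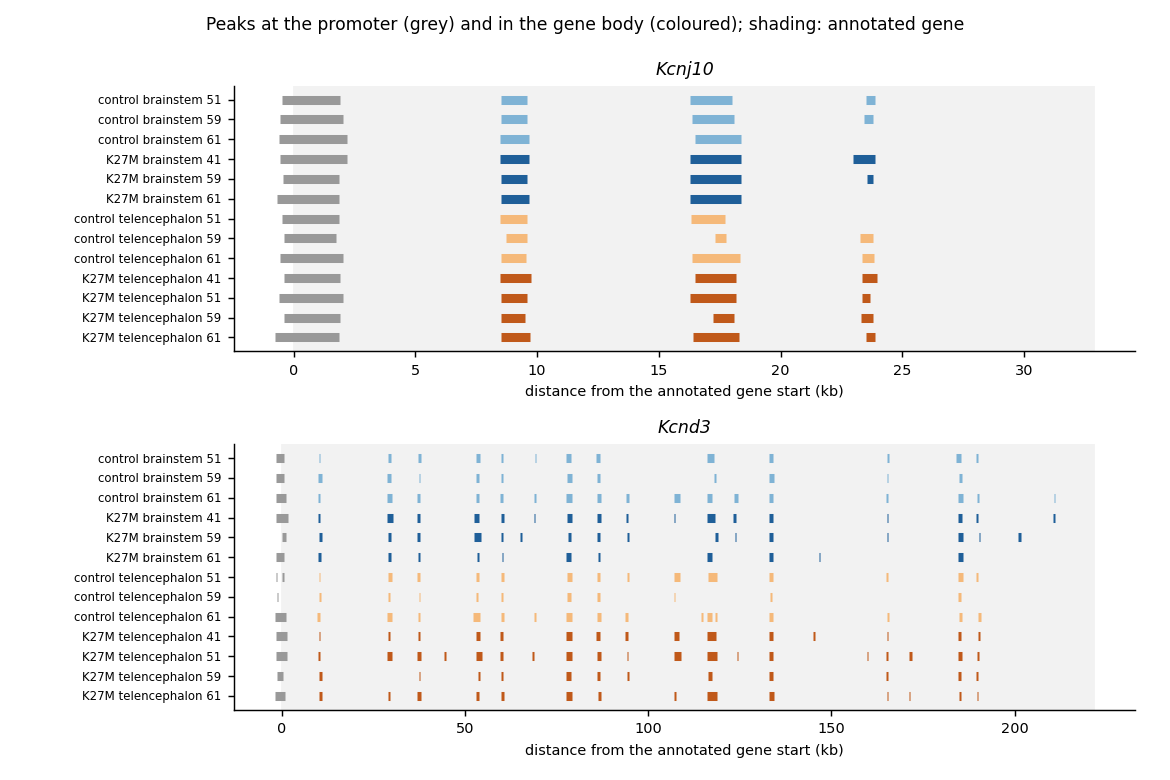
Horizontal bars show the called peaks of Kcnj10 (top) and Kcnd3 (bottom) by distance in kb from the annotated gene start, 1 row per culture, with promoter peaks in grey and gene-body peaks in the colour of the group. Shading marks the annotated gene. The Kcnj10 region near 9.13 kb and 8 Kcnd3 regions appear in all 13 rows.

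Other long channel genes were marked less evenly. Kcnma1, the large-conductance channel, had 9.46 ± 4.03 gene-body peaks per library, which joined into 35 regions with 1 in all libraries. Kcnip1 had 7.85 ± 4.18 in 31 regions with none in all, Kcnq1 7.54 ± 2.50 in 21 regions with 3 in all, and Kcnq5 6.85 ± 2.19 in 14 regions with 2 in all. Kcnq1 held these regions without any promoter peak. One of them (chr7:143295269-143297161, 3.61 ± 0.36) overlapped the promoter of Kcnq1ot1, the antisense RNA of an imprinted cluster that starts inside the gene. Similarly, Kcnj15 had a promoter peak in 2 libraries and an intronic peak in all 13 (chr16:95263844-95264903, 3.83 ± 0.59), and Kcnh7 had 5 and 13, its region lying at the promoter of Gm13569.

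The number of gene-body peaks was compared with limma on log2 of peaks plus 0.5 per 10000 listed peaks, over 1140 coding genes with a mean of at least 3, 11 of them potassium channel genes. By region 0 of 11 passed an adjusted p of 0.05, beside 0.0% of all genes, and 1 had an unadjusted p under 0.05, beside 6.84%. This was Kcnip3, with 3, 3 and 5 peaks in control brainstem, 7, 3 and 3 in K27M brainstem, 4, 1 and 3 in control telencephalon and 2, 3, 1 and 2 in K27M telencephalon. The regions overlapped in these counts, and the difference was 0.66 on the log2 scale (SE 0.24, adjusted p = 0.67).

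The same difference was 1.13 between K27M cultures of the regions (adjusted p = 0.984). Next by region were Kcnq1 (0.18) and Kcnd2 (-0.38), with adjusted p = 0.783 each. By genotype 0 of 11 passed, beside 0.0%, and 0 had an unadjusted p under 0.05, beside 4.65%. The lowest p values were those of Kcnq5 (-0.36), Kcnq1 (-0.23) and Kcnn3 (0.26), with adjusted p of 0.874, 0.874 and 0.918. Over the alternatives Kcnq5 ran from -0.58, without K27M brainstem culture 61, to -0.13, and Kcnq1 from -0.30 to -0.003. Within single regions or genotypes 0 of 11 passed, beside 0.0% of all genes. At an unadjusted p under 0.05 there were 0 of 11 between regions in control cultures, beside 6.4%, and 1, Kcnip3, in K27M cultures, beside 4.82%. Between genotypes there were 0 in brainstem, beside 2.37%, and 2 in telencephalon, Kcnip4 (0.87) and Kcnip3 (-0.73), beside 7.11%. The Kcnip4 difference ran over the alternatives from 0.612 to 1.395, the latter without control telencephalon culture 51. The test of a genotype difference that depends on region gave 2, Kcnq3 (0.98) and Kcnip4 (-1.22), beside 3.95%, with adjusted p = 0.954 each. In this test Kcnip4 ran over the alternatives from -1.89, without control telencephalon culture 51, to -0.91. The median half-width of the 95% interval was 0.48 by region and 0.52 by genotype, wider than for promoter fold. The 94 genes together held 25.9 to 34.1 gene-body peaks per 10000 listed peaks, with 30.6 ± 2.9 in brainstem, 30.0 ± 2.8 in telencephalon, 30.1 ± 3.1 in K27M and 30.6 ± 2.5 in control cultures.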

How the data were processed

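The members and gene lists were chosen with earlier results of these data known. Per the labels and the methods of the study, the authors trimmed reads with Trim Galore 0.6.7, mapped them to mm10 (BWA 0.7.17-r1188), masked the ENCODE blacklist and, for each library alone, called peaks in broad mode (MACS2 2.2.7.1). The deposited fold is a ratio over the local background of that library, not scaled between libraries, so it also moves with depth and background. The deposited −log10 p-values served only to shorten lists and set a stricter threshold, and the −log10 q-values and the score were used only to check the format. The calling cutoff is not given in the sources used here.

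Peaks were assigned to GENCODE M21 genes by an overlap of at least 1 bp, and the strongest promoter peak per gene and library was kept. Detection was tested with two-sided Fisher's exact tests in scipy 1.17.1. Log2 folds, and gene-body peaks (pseudocount 0.5), were fitted with limma 3.58.1 in R 4.3.3 with trend, as 4 group means with the culture number as a block. The block follows the methods of the study, in which control and K27M cultures of a region were assayed together as pairs and tests took the pairing into account where possible. That a shared number marks such a pair is not stated in the labels. Benjamini-Hochberg adjustment ran over all coding genes tested, at 0.05. The detection tests and the limma fit of promoter fold were tried on simulated data, and the other steps were not. Libraries were replicates by culture number, and each is a separate culture per the labels. Genes were named by a rule: the 8 always-open genes of highest mean percentile, the lowest p values of each comparison, the 5 genes with most gene-body peaks, and a list of glial or much-studied channels. Genes named to illustrate class or CG content were chosen after their values were seen. Some genes that the rule selects are counted in the totals but not reported here by name. No correlation across samples was computed.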

Additional observations from a re-analysis of the deposited data

How the results depend on the processing

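The counts of open genes rested on list length and threshold. With each list shortened to the length of the shortest, potassium channel genes with a promoter peak in all libraries fell to 16 and those with none rose to 41, and with only peaks of −log10 p of at least 10 the counts were 1 and 58. Those 58 were 61.7% of the channel genes, beside 52.8% of coding genes, so the lower share without a peak was not seen there either. Kcnab2 alone stayed in all libraries at that threshold, where 3.46% of coding genes did. With an overlap of at least 150 bp, 31 channel genes (33.0%) were open in all, beside 41.8% of coding genes, and Kcnn1 was lost. With a promoter window of 500 bp each side, 29 (30.9%) were, beside 40.6%, and Kcnd2, Kcnd3 and Kcnn1 were lost. Leaving out each library in turn gave 32 to 37 open in all and 15 to 18 in none, the highest values being without control telencephalon culture 59 and without K27M brainstem culture 41. In every alternative of the 6 tested comparisons by region or genotype, 0 potassium channel genes passed the adjusted threshold. For detection this count says nothing of stability, since a gene alone cannot pass at the smallest p of the test. Few channel genes were left in some alternatives of the fits, where a count of 0 says little. At −log10 p of at least 10, 1 of the 32 remained for fold and 1 of the 11 for gene-body peaks. With shortened lists 16 remained for fold and 4 for gene-body peaks. Of the 30 named differences in fold or gene-body peaks, 25 kept their direction in every alternative that gave a value and 5, all of glial rectifiers near 0, did not. Without centring, the region difference became 0.0363 for Kcnj10 and 0.06 for Kcnj16, and the genotype difference became 0.0187 for Kcnj16 and 0.00872 for Kcnj2. On the percentile scale Kcnj16 differed by 0.551 points by region and 0.927 by genotype. Leaving out each library gave by region -0.135 to 0.0115 for Kcnj10 and -0.098 to 0.0572 for Kcnj16. By genotype it gave -0.0513 to 0.0745 for Kcnj10, -0.117 to 0.0672 for Kcnj16 and -0.057 to 0.00334 for Kcnj2. Without centring, the median of all genes moved by over 0.1 in 2 contrasts, to 0.12 between regions in control cultures and to -0.10 for the interaction. By region 18 of the 32 channel genes reversed, and by genotype 8 did. The cause was not tested. The mean number of Kcnd3 gene-body peaks, 14.2, was 7.54 with shortened lists and 3.69 at the stricter threshold. Libraries of different groups that share a culture number deviated together weakly (mean correlation 0.0787 over 16 pairs, 6 over 0.1), beside -0.0268 over 47 pairs of different numbers, 6 of them over 0.1. The fold and gene-body fits gave 0 calls among potassium channel genes both with the replicate block and without it, and detection with the replicate block also gave 0. Depth is unknown, 3 or 4 cultures per group limit the size of difference that could be resolved, and a fold from broad peaks averages over the whole peak.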

Other observations

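One intronic region of Kcnip1, a calcium-binding partner of A-type channels, was called in 5 of 7 telencephalon cultures, 3 of them control and 2 K27M, and in 0 of 6 brainstem cultures (chr11:33894487-33895737). It was picked from 355 merged gene-body regions after its values were seen, and no test was run on it. No other merged gene-body region found in at least 4 libraries was missing from a whole brain region or a whole genotype. Among promoters, that of Kcnu1 was called in 4 of 7 K27M cultures and in 0 of 6 control cultures. It lay outside the 5 to 8 libraries of the detection test and was also picked after its values were seen.

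Among other potassium-handling genes, the pump subunits Atp1b1 (2.81 ± 0.26), Atp1b2 (2.90 ± 0.38) and Atp1b3 (3.10 ± 0.32) had a promoter peak in all 13 libraries (SD, n = 13). The A-type channel partners Dpp6 (3.78 ± 0.67) and Dpp10 (3.31 ± 0.41) were open in all libraries, as were their pore subunits Kcnd2 and Kcnd3. Of the chloride cotransporters, Slc12a2 and Slc12a4 were open in all, Slc12a5 in 10 and the renal Slc12a1 in none.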
